A study of Mus musculus with 6 samples.

Results

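The stretch of mouse chromosome 4 at chr4:88915001-88970000 (genome build mm9), which holds Cdkn2a and Cdkn2b, was examined for Ezh2 in Th1 and Th2 cells. Both genes were taken by their positions, Cdkn2a near 88920000 to 88941000 and Cdkn2b near 88952000 to 88957000. The 55 kb were divided into 55 bins of 1 kb, of 2638957 such bins on chromosomes 1 to 19 and X. The 6 chromatin immunoprecipitation sequencing (ChIP-seq) libraries came from naive (CD44low CD62Lhigh) CD4+ T cells purified from the spleen of C57BL/6 mice and cultured for 5 days. All cultures received IL-2 at 15 ng/ml and were stimulated through TCRβ and CD28 for 2 days, then kept for 3 days without that stimulation. Th1 cultures were given IL-12 at 10 ng/ml with an antibody to IL-4, and Th2 cultures IL-4 at 100 ng/ml with an antibody to IFN-γ. Each cell type gave a pull-down with a polyclonal anti-Ezh2 antibody, a pull-down with a polyclonal rabbit IgG as the control antibody, and input DNA. The labels name no deletion or transgene in any group, and give neither the number of mice nor their age.

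Cdkn2a is a gene with alternative first exons, which give unrelated proteins from shared later exons. One is p16INK4a, an inhibitor of the cyclin-dependent kinases that phosphorylate the retinoblastoma protein, and the other is p19ARF, which binds MDM2 and so stabilises p53. The neighbouring Cdkn2b encodes p15INK4b, an inhibitor of the same kinases. The locus is known for its induction in senescent cells and for its silencing by Polycomb proteins in dividing ones. Ezh2 is the enzyme of Polycomb repressive complex 2 that methylates lysine 27 of histone H3.

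Polycomb repressive complex 2 is known to gather at sequence rich in CpG, so the promoters annotated for both genes are shown with each CpG in capitals. They were taken from RefSeq sequences of build GRCm38.p6, on the minus strand, 5′ to 3′, from 250 bases before to 50 bases after the annotated start. The first is the upstream start of Cdkn2a, that of p19ARF, at chr4:89294570-89294869, the second is its downstream start, that of p16INK4a, at chr4:89282143-89282442, and the last is that of Cdkn2b at chr4:89310983-89311282.
p19ARF promoter: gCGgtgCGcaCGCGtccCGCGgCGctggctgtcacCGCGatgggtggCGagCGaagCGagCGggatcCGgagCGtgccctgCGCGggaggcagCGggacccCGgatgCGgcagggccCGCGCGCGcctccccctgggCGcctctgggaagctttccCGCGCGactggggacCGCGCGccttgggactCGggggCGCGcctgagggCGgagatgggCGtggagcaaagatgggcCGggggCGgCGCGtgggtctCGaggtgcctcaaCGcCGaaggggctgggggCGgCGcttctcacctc
p16INK4a promoter: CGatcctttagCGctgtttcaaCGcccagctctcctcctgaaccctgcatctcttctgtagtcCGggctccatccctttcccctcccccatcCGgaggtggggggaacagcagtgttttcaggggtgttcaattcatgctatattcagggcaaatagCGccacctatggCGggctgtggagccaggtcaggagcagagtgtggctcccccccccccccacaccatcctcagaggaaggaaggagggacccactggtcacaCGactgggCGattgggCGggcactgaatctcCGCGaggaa
Cdkn2b promoter: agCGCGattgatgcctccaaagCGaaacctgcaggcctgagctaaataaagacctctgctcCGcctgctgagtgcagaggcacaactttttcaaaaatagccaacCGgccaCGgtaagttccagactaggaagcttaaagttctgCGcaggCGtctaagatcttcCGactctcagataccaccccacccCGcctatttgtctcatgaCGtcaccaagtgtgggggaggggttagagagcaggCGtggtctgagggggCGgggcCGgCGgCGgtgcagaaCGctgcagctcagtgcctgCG

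The p19ARF promoter held 45 CpG in 300 bases, the p16INK4a promoter 12 and the Cdkn2b promoter 18. At least as many CpG were found in 1.93%, 39.6% and 29.7% of 32851 annotated promoters of that length, which had a median of 7. The share of G and C was 77.0% at p19ARF, 60.3% at p16INK4a and 57.7% at Cdkn2b. In GRCm38.p6 the p16INK4a start lies 12.4 kb downstream of the p19ARF start, and the Cdkn2b start lies 16.4 kb upstream of the p19ARF start. These GRCm38.p6 positions were not carried over to mm9, so no start is placed on the profiles. Because both genes lie on the minus strand, the p19ARF and Cdkn2b starts fall toward the high-coordinate end of each mm9 interval, whose bounds are approximate. The p16INK4a start falls 12.4 kb from that of p19ARF toward lower coordinates, so it is not at the high-coordinate end of the 21 kb Cdkn2a interval.

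The libraries held between 9326717 and 15578675 distinct positions on chromosomes 1 to 19 and X. The Th2 control antibody library was the exception, with 5053626 positions on 8 chromosomes used, chromosome 4 among them. A position is 1 deposited interval, counted once whatever its number of reads. There was 1 library per group, so every test here sets library against library and cannot speak for the cell types, and every 95% exact (Clopper-Pearson) interval holds counting error alone. The names of the deposited Ezh2 data carry different tags in Th1 and Th2, whose meaning the labels do not give, and what they mark cannot be told apart from the cell type.

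Ezh2 was enriched over both genes in both cell types. The 55 kb held 1133 Ezh2 positions in Th1, against 360 in its input and 194 with its control antibody. In Th2 they held 2350 Ezh2 positions, against 319 in the input and 279 with the control antibody. Scaled by library totals, Ezh2 exceeded input 4.54-fold in Th1, with a 95% interval of 4.02 to 5.12. In Th2 the excess was 6.33-fold (5.63 to 7.14). The control antibody stood at 0.900-fold (0.752 to 1.07) and 0.927-fold (0.787 to 1.09) over the same inputs, intervals that hold 1. Windows of 55 kb over the genome were compared by a one-sided exact binomial test, adjusted over all of them by Benjamini-Hochberg. Those 2-fold or more over background with an adjusted p under 0.05 are named called here. The locus was called in both cell types (exact binomial test, adjusted p = 7.49e-163 in Th1, and below the computing range in Th2), as were 1.42% of windows in Th1 and 1.90% in Th2. Over the control antibody it stood at 5.04-fold (4.32 to 5.90) and 6.89-fold (6.08 to 7.83) and was called too, as were 2.23% and 2.27% of windows. It ranked 59th of 46146 windows by fold in Th1 and 46th of 46155 in Th2. On chromosome 4 it ranked 4th of 2736 and 3rd of 2735.

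**Figure D1:**
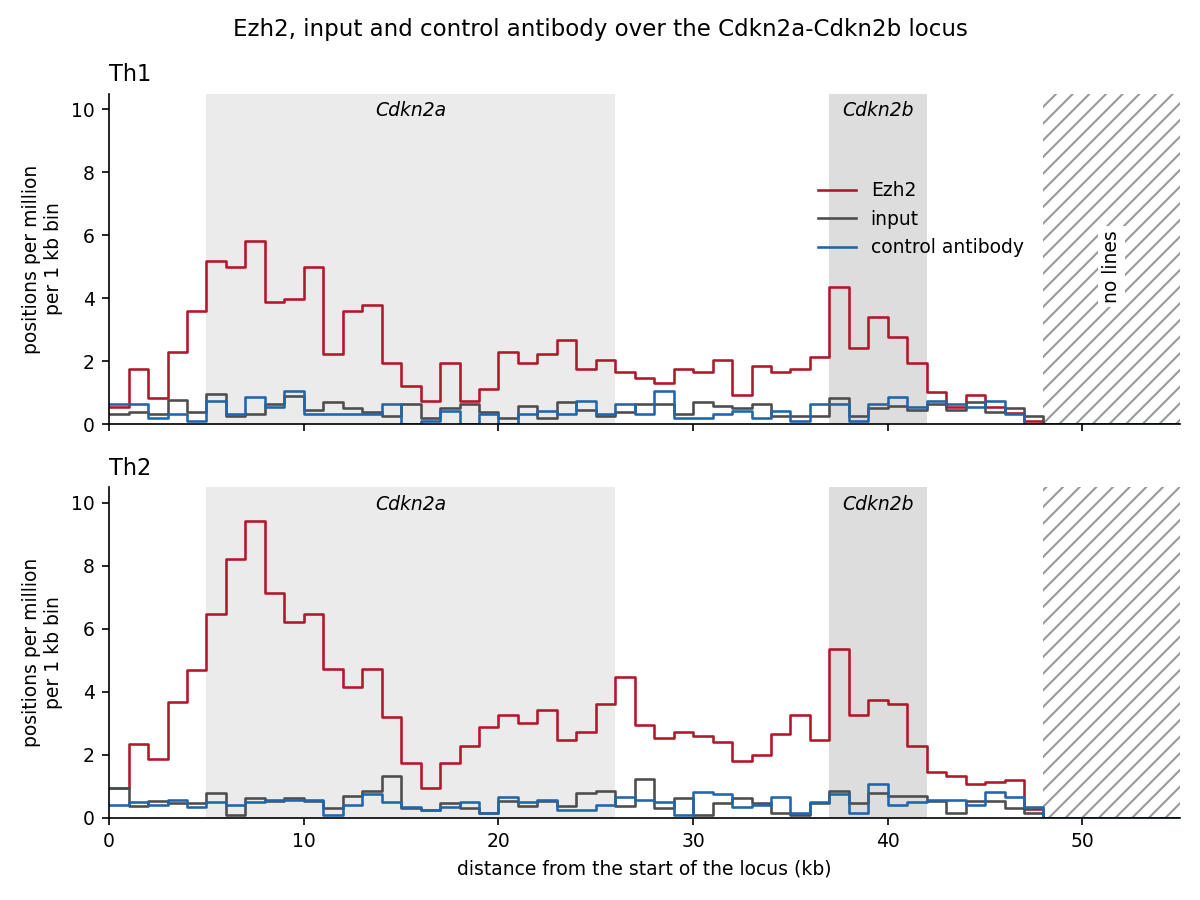
Distinct positions per 1000000 library positions in each 1 kb bin (vertical axis) against the distance in kb from the start of the locus (horizontal axis), in Th1 (top) and Th2 (bottom), for Ezh2, input and the control antibody (1 library each). Grey bands mark the intervals of Cdkn2a and Cdkn2b, and hatching marks bins without a line in any library. Ezh2 is highest at the low-coordinate end of Cdkn2a and lies above input through the stretch between the genes to the end of Cdkn2b.

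Counted by bin, 24 bins of the locus were called in Th1 and 36 in Th2, by the same test and thresholds adjusted over all 1 kb bins. In each cell type 47 of the 55 bins reached the minimum of 10 positions over both libraries. Over the genome 0.992% of tested bins were called in Th1 and 1.21% in Th2. Th1 and Th2 shared 23 of these bins, 1 was called in Th1 alone and 13 in Th2 alone. These counts do not test a difference between the cell types, and the Th2 Ezh2 library was deeper. With libraries thinned to equal depth, the bins called were 24 in Th1 and 34 in Th2. The share of all tested bins called at that depth was not computed, so these counts do not test a difference either. The control antibody gave 0 called bins of 34 tested in Th1 and 0 of 37 tested in Th2, where 0 and 2 had an unadjusted p below 0.05. Over all tested bins it gave 0.00151% in Th1 and 0% in Th2.

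The Cdkn2a interval of 21 kb, the longest segment of the locus, carried the larger share of the Ezh2 positions. It held 639 Ezh2 positions in Th1, with 158 in input and 79 with the control antibody. In Th2 the values were 1330, 146 and 110. Per kb and per 1000000 library positions, these came to 2.81 for Ezh2, 0.483 for input and 0.403 for the control antibody in Th1, and to 4.23, 0.541 and 0.433 in Th2. The Ezh2 level of Cdkn2a was below the 2.98 of Cdkn2b in Th1 and above its 3.65 in Th2. Both Ezh2 levels of Cdkn2a lay above all 4 background levels. The fold over input was 5.83 in Th1 (4.89 to 6.98, exact binomial test, adjusted p = 1.31e-110) and 7.83 in Th2 (6.60 to 9.35, adjusted p = 2.02e-199). Over the control antibody it was 6.98 (5.52 to 8.93) and 9.89 (8.13 to 12.1). Of all 21 kb windows, 1.65% in Th1 and 2.01% in Th2 were called over input, and 2.56% and 2.41% over the control antibody. By fold over input Cdkn2a ranked 130th of 120035 windows in Th1 and 120th of 120091 in Th2. The grid of windows was set to hold the gene interval whole, which other genes on it were not.

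Within Cdkn2a the fold over input was highest at the low-coordinate end, while over the control antibody this held in Th2 alone. The 7 kb at its low-coordinate end held 336 Ezh2 positions in Th1 and 729 in Th2, at 7.34-fold (5.62 to 9.70) and 13.9-fold (10.3 to 19.3) over input. The middle 7 kb held 151 and 281, at 4.44-fold (3.20 to 6.26) and 4.47-fold (3.33 to 6.10). The 7 kb at the high-coordinate end held 152 and 320, at 5.09-fold (3.61 to 7.32) and 5.85-fold (4.30 to 8.13). In Th2 the interval of the low-coordinate end lay above those of the other 7 kb pieces, while in Th1 it overlapped both. This division was made after the profile was seen and was not tested.

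The bin with the most Ezh2 positions was the same in both cell types, from 88922001, at 63 in Th1 and 141 in Th2. Its inputs held 5 and 8 positions and its control antibodies 8 and 6, and Ezh2 stood at 18.2-fold (7.38 to 57.9) and 15.2-fold (7.48 to 35.8) over input. The bin before it, from 88921001, had the highest fold in both cell types. It held 54 Ezh2 positions against 4 of input in Th1, 19.5-fold (7.17 to 74.0), and 123 against 1 in Th2, 105.7-fold (18.6 to 4209.6). That Th2 fold rests on 1 input position, and the Th2 control antibody held 5 there. The next highest in Th1 were the bins from 88935001 and 88937001, at 12.0-fold and 11.5-fold, both with 3 input positions. The bin from 88925001 followed, with 54 Ezh2 positions and 7 of input, 11.1-fold (5.04 to 29.0). In Th2 the next highest were the bins from 88950001 and 88945001, both between the genes and both with 1 input position, at 42.1-fold (7.21 to 1697.2) and 33.5-fold (5.67 to 1357.7). In Th1 those bins stood at 6.85-fold (2.28 to 27.7) and 2.36-fold (1.05 to 5.53), and the latter was not called (exact binomial test, adjusted p = 0.414). With 0.5 added to each count, that bin went in Th1 from 2.32-fold to 14.7-fold and was called with the Th2 input as background. In Th2 it fell from 22.6-fold to 3.58-fold with the Th1 input and to 3.08-fold over the control antibody, and stayed called. The bin from 88950001 fell in Th2 from 28.4-fold to 11.5-fold and 16.2-fold. The Th2 control antibody held 10 positions, against 1 of input in the bin from 88945001.

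The ends of the gene intervals were also enriched. The bin at the high-coordinate end of Cdkn2a, from 88940001, held 22 Ezh2 and 4 input positions in Th1 and 54 and 11 in Th2. Its folds were 7.93 (2.69 to 31.6, exact binomial test, adjusted p = 0.00125) and 4.22 (2.18 to 8.95, adjusted p = 1.29e-04). With the Th2 input as background, the Th1 call at this bin was lost (2.33-fold against 7.21-fold with 0.5 added to each count, exact binomial test, adjusted p = 0.309). The bin at the other end of Cdkn2a, from 88920001, held 56 Ezh2 positions in Th1 and 97 in Th2, at 5.38-fold (exact binomial test, adjusted p = 3.97e-08) and 8.34-fold (adjusted p = 8.52e-14) over input. Ezh2 was lower near the middle of the gene. From 88930001 to 88934000 the 4 bins held 13, 8, 21 and 8 Ezh2 positions in Th1, none of them called, and 26, 14, 26 and 34 in Th2, where the first and the last were called.

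Cdkn2b, which spans 5 kb, was enriched as a whole, with the weakest evidence at its high-coordinate end. It held 161 Ezh2 positions in Th1, with 41 in input and 26 with the control antibody, and 273, 45 and 35 in Th2. Per kb and per 1000000 library positions the Ezh2 level was 2.98 in Th1 and 3.65 in Th2, where input stood at 0.526 and 0.700 and the control antibody at 0.558 and 0.578. All 5 bins were called in both cell types, with folds between 4.13 and 8.49 in Th1 and between 3.12 and 6.55 in Th2, with 0.5 added to each count. Against the control antibody as background, 3 of the 5 were called in Th1. Over the interval, Ezh2 stood at 5.66-fold over input in Th1 (3.99 to 8.18, exact binomial test, adjusted p = 1.41e-26) and at 5.21-fold in Th2 (3.79 to 7.32, adjusted p = 1.66e-31). Over the control antibody it stood at 5.34-fold (3.52 to 8.43) and 6.38-fold (4.48 to 9.35). Of all 5 kb windows, 2.25% in Th1 and 2.48% in Th2 were called over input, and 2.95% and 3.03% over the control antibody. Cdkn2b ranked 985th of 486369 windows by fold in Th1 and 1774th of 487206 in Th2. Its highest bin by positions was the one at its low-coordinate end, from 88952001, with 47 in Th1 and 80 in Th2. The bin at the other end, from 88956001, had the fewest of the 5, 21 and 34. Its folds were 4.32 (1.77 to 12.0, exact binomial test, adjusted p = 0.0316) in Th1 and 3.25 (1.53 to 7.70, adjusted p = 0.0442) in Th2. Of 8 alternatives, 6 lost the Th1 call at this bin and 3 the Th2 call. With 0.5 added to each count its Th1 fold of 4.13 went to 2.69 with the Th2 input (exact binomial test, adjusted p = 0.210) and to 3.37 over the control antibody (adjusted p = 0.137). At equal depth neither call remained (exact binomial test, adjusted p = 0.0586 and 0.124).

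**Figure D2:**
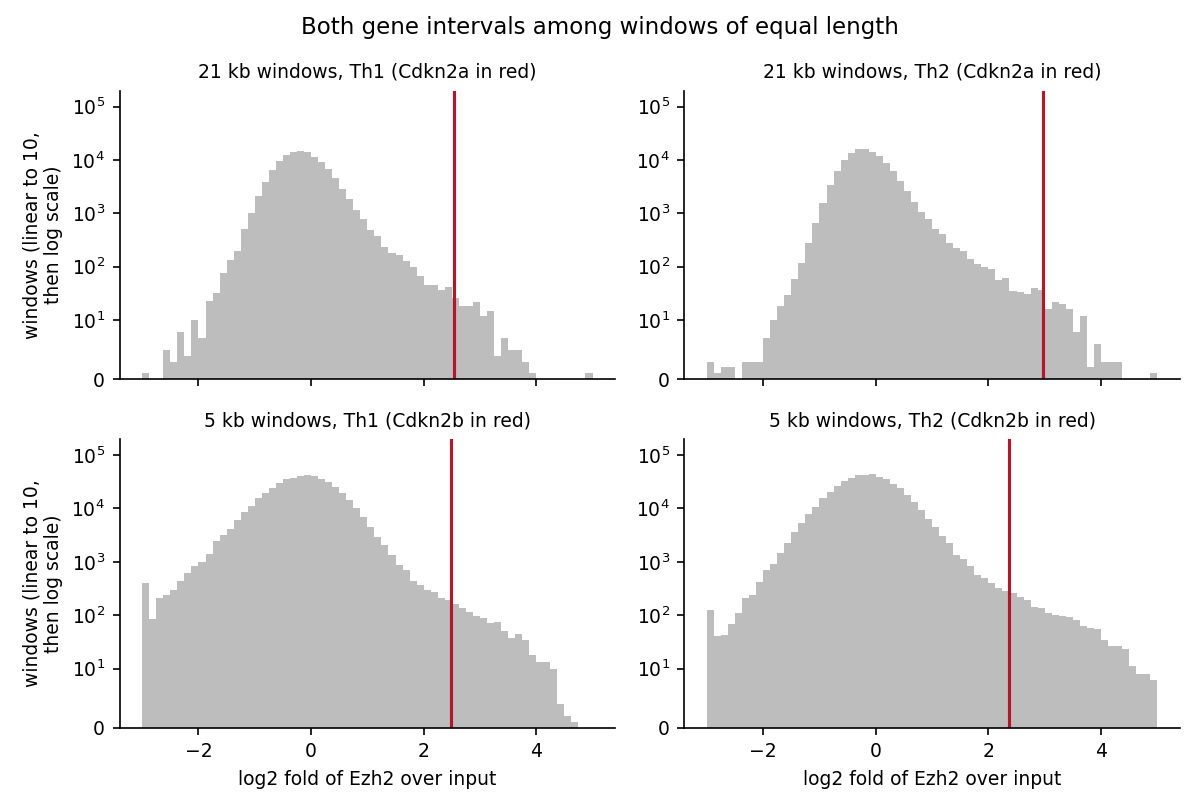
Number of windows (vertical axis, linear to 10 and then a log scale) by log2 fold of Ezh2 over input with 0.5 added to each count (horizontal axis), for windows of 21 kb (top) and 5 kb (bottom) in Th1 and Th2; folds beyond either end are in the end bars. The red line is Cdkn2a (5.81 and 7.81 on this count) or Cdkn2b (5.61 and 5.17), in the upper tail of each panel.

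The stretch of 11 kb between the genes was enriched as well. RefSeq lists a long non-coding RNA gene, Gm12610, between Cdkn2a and Cdkn2b. The stretch held 197 Ezh2 positions in Th1 and 448 in Th2, at 3.51-fold (2.69 to 4.60) and 6.11-fold (4.69 to 8.09) over input. Its inputs held 81 and 63 positions. In Th1, 4 of its 11 bins were called, and in Th2, 9. On the other side of Cdkn2a, the first 5 kb of the locus held 98 and 202 Ezh2 positions, at 4.15-fold (2.79 to 6.33) and 4.82-fold (3.37 to 7.08). The 13 kb beyond Cdkn2b held 38 in Th1, at 1.19-fold (0.754 to 1.87), and 97 in Th2, at 2.88-fold (1.88 to 4.52). There 0 bins were called in Th1 and 1 in Th2, and the control antibody stood at 1.02-fold and 1.50-fold. Set directly against the control antibody, Ezh2 stood there at 1.17-fold (0.700 to 1.98) in Th1 and 1.93-fold (1.33 to 2.86) in Th2.

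Past Cdkn2b, in the 5 tested bins from 88957001, the Th1 folds lay between 0.721 and 1.59. In Th2 they lay between 1.96 and 8.60, with 1 of the 5 called. An empty stretch followed. From 88963001 to 89012000, 49 kb, no library held a single line, so the 7 bins of it that lie in the locus carry no measurement. The 50 kb after the locus, most of them empty, held 62 Ezh2 and 47 input positions in Th1, a fold of 1.90 (1.28 to 2.84). In Th2 they held 107 and 45, a fold of 2.04 (1.43 to 2.96). On the other side, the 50 kb before the locus had an Ezh2 fold over input of 1.48 in Th1 (1.22 to 1.79) and of 1.23 in Th2 (1.03 to 1.46), below both gene intervals. Within 500 kb on both sides, outside the locus, 5 of 601 tested bins were called in Th1 and 8 of 632 in Th2.

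**Figure D3:**
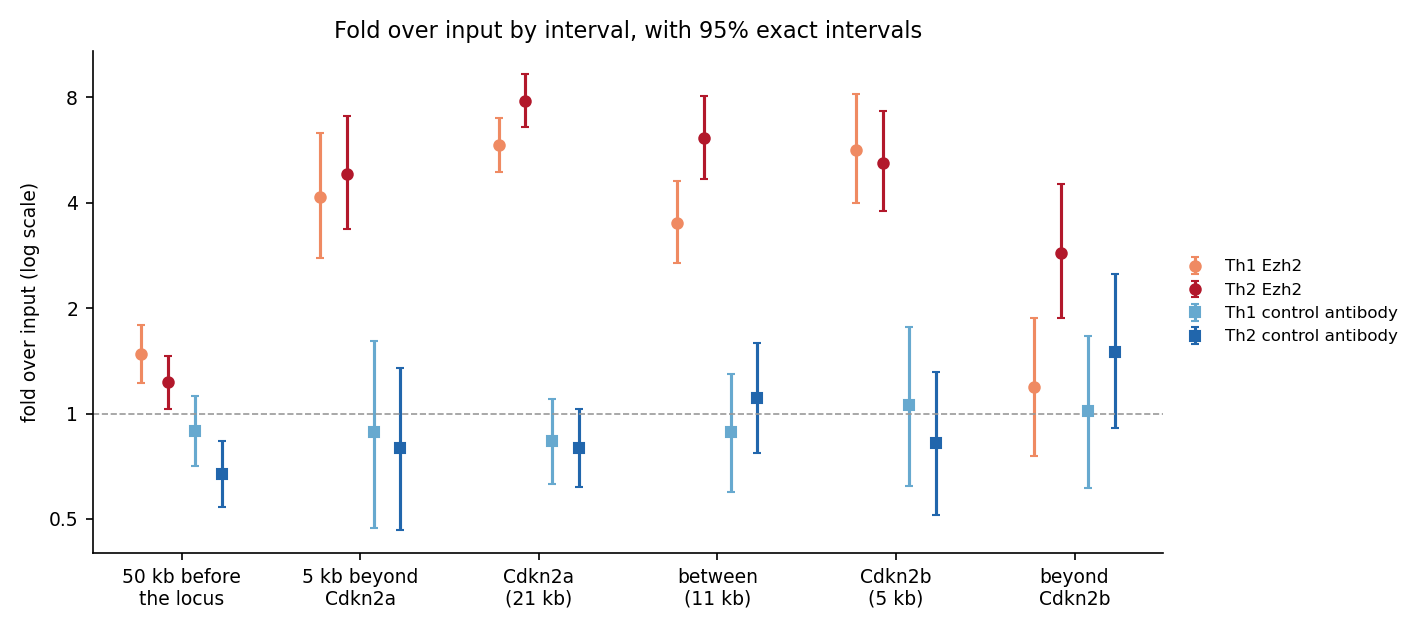
Fold over input (vertical axis, log scale) of Ezh2 and of the control antibody in Th1 and Th2 for the 50 kb before the locus and for each segment of it; points are single libraries, bars are 95% exact intervals for counting error, and the dashed line is a fold of 1. Ezh2 lies above the control antibody at Cdkn2a (5.83 and 7.83), between the genes (3.51 and 6.11) and at Cdkn2b (5.66 and 5.21). Beyond Cdkn2b the intervals of Ezh2 and the control antibody overlap, which is no test of their difference. The direct ratio of Ezh2 to the control antibody there, not drawn, was 1.17 (0.700 to 1.98) in Th1 and 1.93 (1.33 to 2.86) in Th2.

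Called bins were joined into domains across gaps of no more than 1 bin. The locus then held 5 domains in Th1 and 2 in Th2. The widest in Th1, from 88919001 to 88930000, spanned 11 kb over the low-coordinate end of Cdkn2a, and the next, from 88949001 to 88957000, spanned 8 kb and held all of Cdkn2b. In Th2 a domain of 26 kb ran from 88933001 to 88959000, across the high-coordinate end of Cdkn2a, the stretch between and all of Cdkn2b. The other Th2 domain ran from 88916001 to 88931000, 15 kb. The 26 kb domain was the widest of 422 on chromosome 4 in Th2 and ranked 35th of 6223 in all, and the 11 kb domain ranked 157th of 5664 in Th1. The width depends on the gap allowed: with up to 3 bins, all of the Th2 signal joined into 1 domain of 43 kb, and the widest in Th1 reached 18 kb. That Th1 domain ran from 88912001 to 88930000, and so began at a called bin before the locus. With no gap the widest in Th2 was 11 kb, from 88918001 to 88929000, and ranked 14th of 496 on chromosome 4 and 180th of 7187 in all. In Th1 it was then the 8 kb domain of Cdkn2b, which ranked 183rd of 6510.

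The shape of the profile was shared by the Ezh2 libraries. Over the 48 bins with lines, the Ezh2 positions of Th1 and Th2 had a Spearman correlation of 0.871 and a Pearson correlation of 0.922. For input these were 0.0789 and 0.0969, and for the control antibody 0.328 and 0.305. The background libraries held fewer positions per bin. Over the 55 bins the medians in Th1 and Th2 were 19 and 39 for Ezh2, 6 and 6 for input, and 3 and 5 for the control antibody. Counting error weighs more at such low counts, so the background correlations cannot be set beside those of Ezh2. The bins share their sequence and its mappability across libraries, and neighbouring bins are not independent.

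Between the cell types, the locus as a whole had a higher fold in Th2. The fold over input in Th2 was 1.40 times that in Th1 (95% interval 1.18 to 1.66, two-sided conditional exact test, adjusted p = 0.0212 over 46214 windows of 55 kb), and 0.493% of those windows were called higher in Th2. For Cdkn2a alone the ratio was 1.34 (1.04 to 1.73), which did not pass (exact test, adjusted p = 0.465), where 0.0797% of 21 kb windows were called higher in Th2. For Cdkn2b it was 0.921 (0.562 to 1.51, exact test, adjusted p = 1.00), where 0.00242% of 5 kb windows were called higher in Th2. The interval for Cdkn2b allows from 1.51-fold more in Th2 to a ratio of 0.562. Among the 597 windows of 55 kb at 2-fold or more over input in both cell types, 8.38% had a higher ratio than the locus. The median ratio of those windows was 1.15. In the same way, 20.2% of 1646 windows of 21 kb exceeded Cdkn2a and 76.9% of 6676 windows of 5 kb exceeded Cdkn2b. Many enriched bins leaned the same way: over the 8501 bins called in both cell types the median ratio of the folds was 1.16. Relative to that median the ratio of the locus was 1.21 (1.02 to 1.43) and no longer passed (exact test, adjusted p = 0.146).

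Bin by bin, 45 of the 47 tested bins had more Ezh2 in Th2 than in Th1 after scaling by library totals, with a median ratio of 1.56. Relative to the median of 1.20 over all bins called in both cell types, 38 of the 47 were higher in Th2. In the two-sided exact binomial test, adjusted over the genome, 0 of the 47 passed 0.05, where 0.00233% of all tested bins passed in either direction. At an unadjusted p below 0.05, 14 of the 47 (29.8%) were higher in Th2 and 0 in Th1. That share was 2.88% of all tested bins and 18.1% of the bins called in both cell types. Against the median of 1.20 as the expected ratio, 5 of the 47 (10.6%) were higher in Th2, beside 4.96% of bins called in both. The smallest unadjusted p was at the bin from 88941001, next to the high-coordinate end of Cdkn2a, where Th1 held 18 Ezh2 positions and Th2 held 67. The ratio there was 2.69 (1.58 to 4.81) and did not pass (exact binomial test, adjusted p = 0.233). No bin of Cdkn2b reached an unadjusted p of 0.05, while 8 of the 21 bins of Cdkn2a did, and 4 of the 21 against the median of 1.20. Whether both genes differed from each other in this was tested on the counts of both intervals, which needs no library total. The ratio of Th2 to Th1 Ezh2 positions was 1.23 times higher at Cdkn2a than at Cdkn2b (95% interval 0.982 to 1.53), which did not pass (Fisher's exact test, p = 0.0717, adjusted p = 0.215 over the 3 kinds of library). The same quantity was 0.842 (0.506 to 1.40) for input and 1.03 (0.550 to 1.93) for the control antibody.

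**Figure D4:**
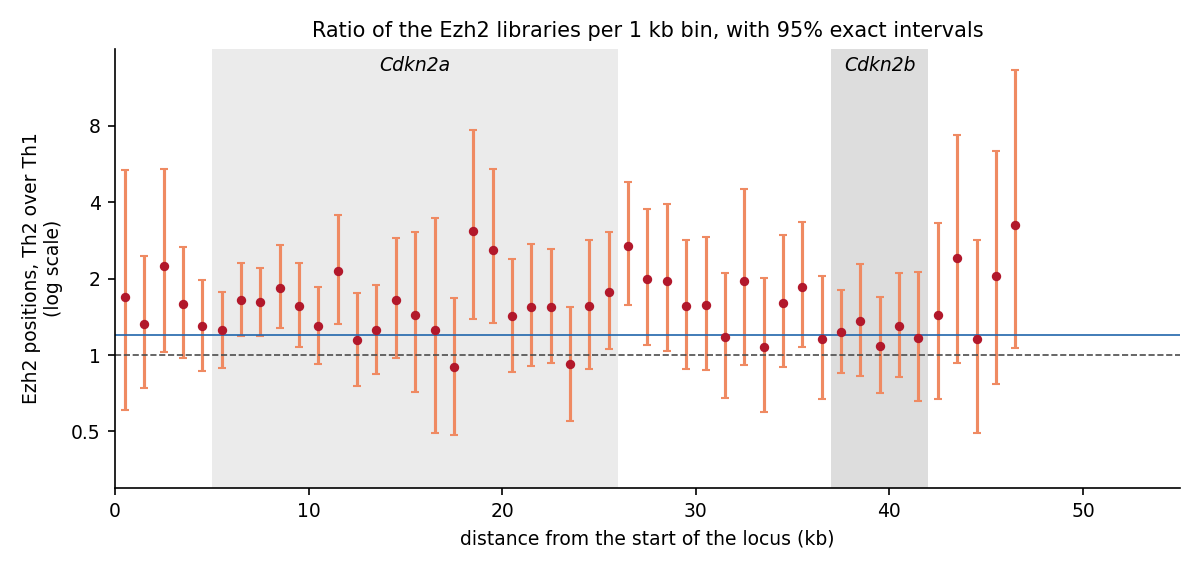
Ratio of Ezh2 positions in Th2 to Th1 after scaling by library totals (vertical axis, log scale) in each tested 1 kb bin against the distance in kb from the start of the locus (horizontal axis), 1 library per cell type; bars are 95% exact intervals for counting error. The dashed line is a ratio of 1 and the blue line the median of 1.20 over all bins called in both cell types; 45 of the 47 points lie above 1 and 38 above the median.

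Reads per position, which rise with PCR copies, were close to those of the whole libraries. In the locus they were 2.25 for Ezh2 in Th1 and 2.01 in Th2, against 2.24 and 2.04 over the libraries. The inputs had 1.30 and 1.73 in the locus, against 1.29 and 1.77.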

How the data were processed

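Read counts per genomic interval were deposited by the authors, without normalization and without a strand, and 1 line stands for 1 distinct interval. Per the submitters' processing notes, CASAVA was used and the build was mm9; alignment settings, read extension and filters are not given in the sources used here. Fragments of 170 to 250 bp went through 18 PCR cycles and 36 sequencing cycles, per the labels' protocols.

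Each line was counted once, at its midpoint, in 1 kb bins and in windows of 55, 21 and 5 kb tiled over chromosomes 1 to 19 and X, and scaled by library totals. The Th2 control antibody library was used on the 8 chromosomes read whole, with the other library cut to the same chromosomes. Its level per 1000000 positions was scaled by the share of those chromosomes in the Th1 control antibody library. A bin or window was tested with at least 10 positions over the libraries compared, and called if its p, adjusted by Benjamini-Hochberg over all of them, was under 0.05. Enrichment also had to reach 2-fold after 0.5 was added to the count of each library. Enrichment was tested by a one-sided exact binomial test, Th1 against Th2 by two-sided exact tests (the smaller tail doubled). Intervals are 95% exact ones. The genes and lists were chosen with earlier results of these data known. The bins named by rule are 3 in each cell type, by highest fold with 0.5 added to each count, and those at the ends of both genes. In Th1 the bin from 88925001 was taken, though that from 88935001 had the same 10.5-fold on that count after rounding. The bins from 88935001 and 88937001 were named after their values were seen and were not followed singly through the alternatives. The bin from 88941001, the 7 kb pieces of Cdkn2a and the 4 low bins inside Cdkn2a were also named after their values were seen. Fisher's test was likewise added after the values were seen. The planned list of other cell-cycle and Polycomb genes was not analysed here, as no mm9 annotation was used. Alternatives are given in the closing section. The scripts (Python 3.11.15, scipy 1.17.1) were tested on simulated data.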

Additional observations from a re-analysis of the deposited data

Results flagged for a closer look

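The enrichment of Ezh2 over input differed between the Th1 and Th2 libraries over the 55 kb of the locus, by the test of the difference itself. The fold in Th2 was 1.40 times that in Th1 (95% interval 1.18 to 1.66, conditional exact test, adjusted p = 0.0212), with 1 library per group. The tags in the names of both Ezh2 libraries differ as well, and what they mark cannot be told apart from the cell type. Relative to the median over bins called in both cell types the ratio was 1.21 and did not pass.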

How the results depend on the processing

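Enrichment over input and over the control antibody kept its direction and its call for the locus, Cdkn2a and Cdkn2b in both cell types under the 4 alternatives run over input: all deposited reads, the input of the other cell type, background scaling and intervals widened by 1 kb. Counting all reads, the only alternative run against the control antibody, kept those calls too. Called bins in Th1 went from 24 to 38 kb with 2 kb bins and to 15 with a fold of at least 4 and an adjusted p below 0.001; in Th2 they stayed within 1.5 times of 36. The widest domain went from 11 kb to 18 kb in Th1 with gaps of up to 3 bins, and from 26 kb in Th2 to 11 kb with no gap, 43 kb with gaps of up to 3 bins and 43 kb with all reads. For Th1 against Th2, the ratio of the locus was 1.21 and lost its call when the median over bins called in both was the expected ratio. The ratio at Cdkn2a passed with all reads (1.39, exact test, adjusted p = 0.0189) and with Ezh2 positions alone (1.50, exact test, adjusted p = 1.89e-14). The latter leaves out input and was not set against the median Ezh2 ratio of 1.20 over bins called in both. Relative to the median ratio of the folds, Cdkn2a stood at 1.16 (0.903 to 1.49) and did not pass (exact test, adjusted p = 0.668). With all reads, 15 bins were higher in Th2 where 0 were before. The share of all tested bins higher in Th2 with all reads was not computed, so that count is not a result about the locus. Reads of 1 position are also not independent. With all reads the control antibody also gave 1 called bin in the locus in Th2, and 3.32% of all tested bins. Of 144 values of named bins under alternatives, 12 lost and 4 gained a call and 0 reversed. The thinning to equal depth (widest domains 11 and 23 kb) was chosen after seeing the data. No paired analysis was possible because the groups are single libraries, so none could be left out. With a median of 6 input positions over the 55 bins in each cell type, folds of single bins are loosely bounded.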
